A study of Cavia porcellus with 30 samples.

Results

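In cultured guinea pig renal proximal tubular epithelial cells exposed to the high dose of mercuric chloride, 183 transcripts lay on opposite sides of their time-matched vehicle at 12 h and 24 h. Of these, 75 were higher than vehicle at 12 h and lower at 24 h, and 108 were lower at 12 h and higher at 24 h. They were chosen from the values themselves. For each dose and time, a difference D was computed as log2 of the mean TPM of the treated libraries plus 0.5 over the mean TPM of the vehicle libraries of the same time plus 0.5. TPM is the share of a library that a transcript makes up, corrected for its length and scaled to a fixed total. A transcript was a member when the largest of its 6 group means was at least 1 TPM and D at the high dose was at least 0.4 in size at both times with opposite signs. The 183 members were 1.15% of the 15909 transcripts that reached 1 TPM in a group mean, out of 25824 listed.

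The series holds 30 RNA-seq libraries in 6 groups of 5. Cells of Hartley guinea pigs 6 to 8 weeks old were exposed to vehicle (Hepatocyte Maintenance Medium), to 30 µM HgCl2 (low dose) or to 40 µM HgCl2 (high dose), and RNA was taken after 12 h or 24 h. All 6 groups spent the last 48 h before exposure in the vehicle medium, after growth to a monolayer and replating, and the study's methods name male animals as the source. The cells were grown from tubules of the renal cortex after glomeruli had been removed, and no sort on a marker is described. The sources do not say whether the 5 libraries of a group came from separate animals or cultures, so p-values here measure only the spread between these libraries, which may be technical.

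Proximal tubular cells take up mercuric ions from the filtrate and the blood, and they are the main site of injury by inorganic mercury in the kidney. Mercuric ions bind thiol groups of glutathione and of proteins, and cells answer with metal-binding, antioxidant and chaperone proteins. A transcript level measured at a single time after such an exposure reflects both synthesis and decay up to that time, so an early and a late time point can show different stages of a response.

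The transcripts carry Ensembl identifiers only. Of the 25824 identifiers, 0 matched the gene table at hand, so no member could be given a gene name, a function, a genome position or a sequence. The labelled cell type could not be checked against its marker genes for the same reason, and the lists of stress, transport and cell type genes that had been set out were not run. The members are therefore described by level, length, kind of estimate and values in each library.

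Library totals lay between 21651452 and 35021210 estimated counts. Over the 60 pairs of libraries within groups, the chi-square per degree of freedom of the estimated counts was 6.21 to 53.1. No pair thus agreed within counting noise alone, and error from reads shared between transcripts was not set apart. Replicates are numbered here by their order within each group, so a shared number is not a label of the study. Replicate 5 stood apart in 4 groups. In the high-dose group of 24 h its chi-square with its 4 mates was 38.9 to 53.1, against 7.85 to 12.9 among those mates, and in the low-dose group of 24 h 28.3 to 47.1 against 6.97 to 9.44. At 12 h it was 16.6 to 22.6 against 7.09 to 7.95 in the low-dose group and 11.1 to 18.4 against 7.13 to 10.8 in vehicle. The low-dose library of 24 h correlated least with its group mates (mean r = 0.981 across transcripts on the log2 scale, against 0.985 to 0.991 for the other 29). The high-dose library enters every D at 40 µM and 24 h, and without it 91 and 111 transcripts met the rule, of which 66 and 88 were among the 75 and 108. Without vehicle replicate 5 at 12 h the counts were 86 and 112, of which 67 and 96 were shared. The low-dose libraries enter only the filter of 1 TPM and the low-dose values. Beside the main low-dose values, those without low-dose replicate 5 are given for D, sums, mixed groups and calls, and all but the calls between the times were added after seeing the data.

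Opposite signs were the less common outcome among transcripts that differed from vehicle at both times. At the high dose, 4675 transcripts were past 0.4 in size at 12 h and 2195 at 24 h. Of the 1381 past it at both, 547 were higher at both times, 651 were lower at both and 183 (13.3%) had opposite signs. The share was lower among transcripts whose libraries were cleanly separated. Of the 717 transcripts past the threshold whose high-dose and vehicle libraries did not overlap in TPM at either time, 16 (2.23%) had opposite signs. The same rule applied to the low dose found 49 transcripts that were higher at 12 h and lower at 24 h and 94 in the reverse direction, or 67 and 98 without low-dose replicate 5 at both times. These share their vehicle libraries with the high-dose set.

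**Figure D1:**
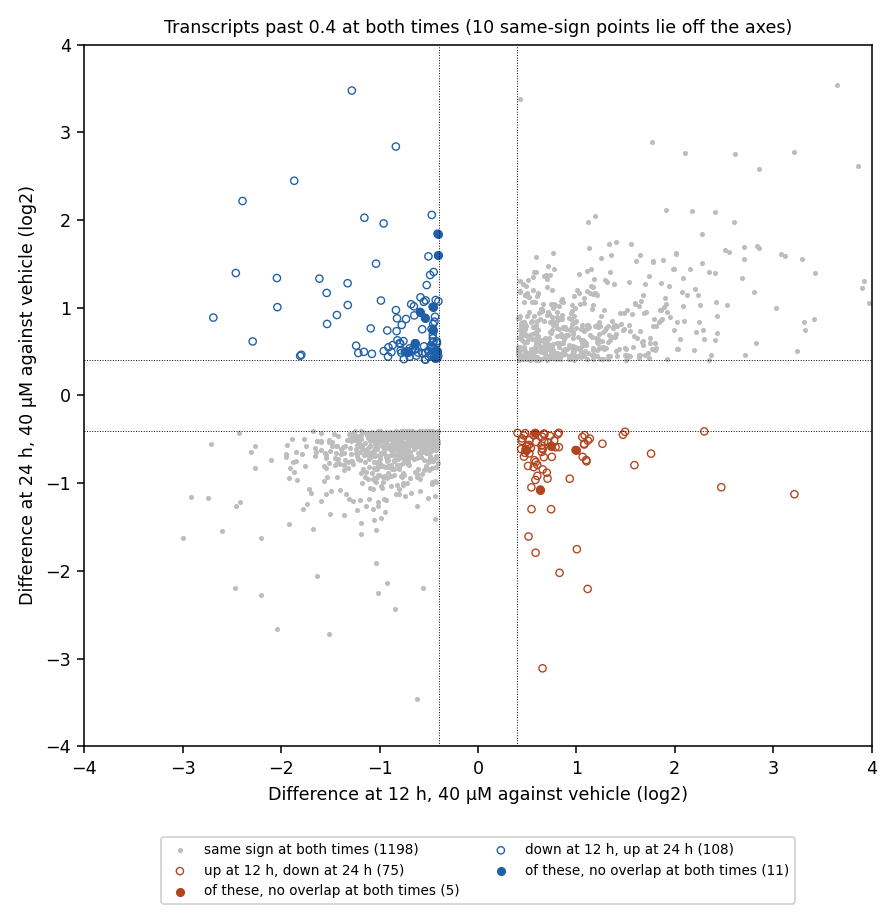
High-dose differences from vehicle at 12 h (horizontal axis) and 24 h (vertical axis), both log2, for the 1381 transcripts past 0.4 in size at both times. Grey points have 1 sign at both times (1198), open coloured circles are the 75 and 108 members, and filled circles are the 5 and 11 members whose high-dose and vehicle libraries did not overlap at either time. Dotted lines mark 0.4 and -0.4, and 10 grey points lie beyond the axis limit of 4.

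Many members sat close to the threshold. In 24 of the 75 and 52 of the 108, the smaller of the 2 sizes was under 0.5. Just inside the rule were transcripts with D of 0.40 and -0.43, of -0.40 and 1.07, and of -0.40 and 0.45 at 12 h and 24 h. At the other side of the boundary were transcripts whose smaller difference was 0.399 in size, with the other difference at 1.14, 0.55 and 0.78. Only 4 of the 75 and 12 of the 108 had a size of at least 1 at both times.

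The 75 transcripts that were higher at 12 h and lower at 24 h were short and low in level. Their median length was 1074 bases against 2418 over all 15909 transcripts, and their median count was 17.3 per library against 471. At 40 µM the median D was 0.67 at 12 h and -0.61 at 24 h. At 30 µM it was 0.22 and -0.47 (0.25 and -0.40 without low-dose replicate 5). Over all 15909 transcripts the medians were -0.05 and -0.0046 at 40 µM and -0.09 and -0.03 at 30 µM. The low-dose D uses the vehicle means that chose the members, so nothing is read from its signs. From 12 h to 24 h the median change of the 75, as log2 of mean TPM plus 0.5, was -0.18 at 30 µM and 0.67 in vehicle.

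The 108 transcripts in the reverse direction had a median length of 1447 bases and a median count of 48.4 per library. Their median D at the high dose was -0.65 at 12 h and 0.62 at 24 h, and at the low dose -0.30 and 0.42 (-0.30 and 0.44 without low-dose replicate 5). Here too the low-dose D uses the vehicle means that chose the members, and nothing is read from its signs. From 12 h to 24 h the median change of the 108, on the same scale, was 0.07 at 30 µM and -0.55 in vehicle. In bulk libraries such as these, a change in the share of cells that hold a transcript and a change in its level per cell cannot be told apart.

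Members were most frequent among transcripts with few counts or with shared reads. Kallisto, the tool with which the files were made, divides a read that fits several transcripts among them, and a fractional count marks such sharing. Fractional counts occurred in 60 of the 75 and in 99 of the 108 members, which is 86.9% of all 183, against 61.4% of the 15909 transcripts. The share of transcripts that met the rule was 14.0% for fractional estimates under 10 counts per library and fell by level to 0.0682% at 500 counts and over. For whole estimates it was 9.40% under 10 counts, 0.417% from 10 to 50 counts and 0.121% at 500 counts and over. Among transcripts past the threshold at both times, 24 of 519 with whole estimates (4.62%) and 159 of 862 with fractional estimates (18.4%) had opposite signs. What part sharing and counting error have in the membership was not tested.

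**Figure D2:**
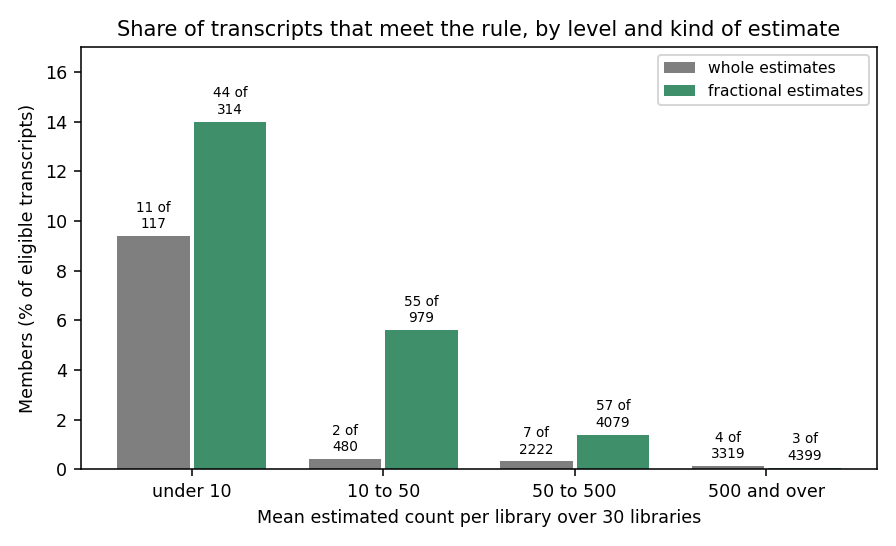
Share of eligible transcripts that met the rule (percent, vertical axis) by mean estimated count per library over the 30 libraries (horizontal axis), for whole (grey) and fractional (green) estimates. The numbers above the bars are members of eligible transcripts, and the shares run from 14.0% for fractional estimates under 10 counts down to 0.0682% for those at 500 counts and over.

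Within groups, the members' libraries often disagreed. A transcript was counted as mixed when 1 group held a library at or below 0.01 TPM beside a library of at least 1 TPM. In the 4 vehicle and high-dose groups this occurred for 55 of the 75 (73.3%) and 65 of the 108 members (60.2%), against 6.52% of all 15909 transcripts. In the low-dose groups, which gave no value to the differences at the high dose, it occurred for 45 of the 75 (60%) and 53 of the 108 (49.1%), against 5.52% of all, and without low-dose replicate 5 for 40 and 48 members. Among fractional transcripts with 10 to 500 counts, 50% of the 112 members and 11.6% of all 5058 were mixed in a low-dose group. The median SD of log2 values within low-dose groups was 0.85 for the 75 and 0.69 for the 108 members, against 0.14 over all transcripts.

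**Figure D3:**
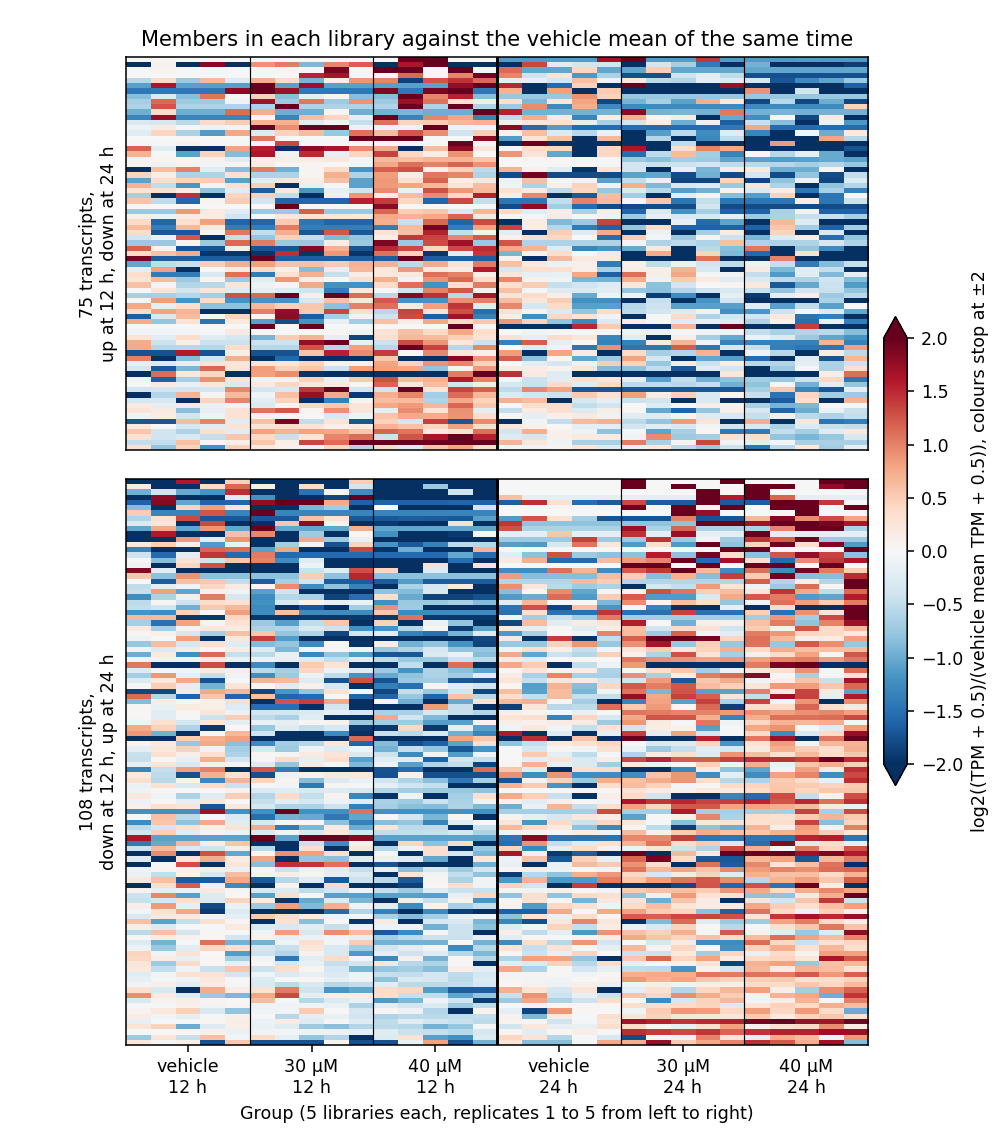
Each of the 183 members (rows, ordered within a direction by the smaller of its 2 differences, largest at the top) in each of the 30 libraries (columns, 5 per group), as log2 of TPM plus 0.5 over the vehicle mean of the same time plus 0.5. Red is above the vehicle mean of that time and blue below. The rule fixed the sign of each high-dose group mean TPM against vehicle, not of the single log2 values shown. Many rows change colour between libraries of 1 group, vehicle included.

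Since D at each time is taken against its own vehicle, a difference between the vehicle groups moves D, and the vehicle values of this paragraph are among those that chose the members. They are given as a description. The median change of vehicle from 12 h to 24 h, as log2 of mean TPM plus 0.5, was 0.67 for the 75 and -0.55 for the 108 members, against -0.06 over all transcripts. At the high dose the change was -0.91 and 0.84. In 28 of the 75 (37.3%) and 40 of the 108 members (37.0%), vehicle changed by more than the high-dose group did, against 28.3% of all transcripts. By edgeR's quasi-likelihood test with Benjamini-Hochberg adjustment (adjusted p under 0.1), 1 of 40 tested members of the first set was called higher at 24 h in vehicle (1.38% of all tested) and 2 of 74 of the second set were called lower (0.782% of all tested).

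The sums over members add up the values that chose them, so the order of vehicle and high dose in them was set by the rule. At 12 h the 75 members summed to 1207 ± 84.5 TPM (SD, n = 5) under vehicle, 1228 ± 72.7 TPM under 30 µM and 1925 ± 251 TPM under 40 µM. The sums at 24 h were 1335 ± 97.5, 1112 ± 76.7 and 836 ± 40.4 TPM in the same order. Without low-dose replicate 5 the 30 µM sums of the 75 were 1258 at 12 h and 1124 TPM at 24 h, and those of the 108 were 336 and 382 TPM. A few abundant members made up most of the first sum. The 108 members summed to 421 ± 36.0, 325 ± 27.5 and 239 ± 13.4 TPM at 12 h and to 258 ± 12.1, 376 ± 28.1 and 480 ± 41.7 TPM at 24 h. For the 108, the vehicle sum at 24 h lay below that at 12 h in each library, 238 to 270 against 380 to 465 TPM.

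At the high dose itself, calls among members are a description of the values that chose them. At 12 h, 13 of 43 tested members of the first set were called higher than vehicle (24.9% of all tested) and 25 of 73 of the second set were called lower (26.1% of all tested). At 24 h, 7 of 38 were called lower (14% of all tested) and 23 of 76 were called higher (13.6% of all tested). Called at both times with opposite signs were 6 of the 33 members of the first set and 18 of the 71 of the second set that were tested at both, against 1.99% of all transcripts tested at both. Without high-dose replicate 5, in a fit added after seeing the data, the counts at 24 h were 8 lower of 43 tested (12.7% of all tested) and 21 higher of 78 (12.4% of all tested). At neither time were 20 of the 33 (60.6%) and 41 of the 71 (57.7%) called, against 41.6% of all transcripts tested at both. The filter on low counts removed 32 and 37 of the 75 and 35 and 32 of the 108 members from the tests at 12 h and 24 h with all libraries.

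The high-dose and vehicle libraries did not overlap in TPM at either time for 5 members of the first set and 11 of the second, against 12.5% of all 15909 transcripts. These 16 had at least 37.0 counts per library on average and lengths of 771 to 6886 bases, with no member under 500 bases, where 59 of all 183 members were that short. At 64 of the 75 (85.3%) and 84 of the 108 (77.8%) the libraries overlapped at both times, against 59.2% of all 15909. All 16 still met the rule without high-dose replicate 5 at 24 h, but 4 of the 5 and 5 of the 11 met it whichever of the 20 vehicle and high-dose libraries was left out, and the least stable met it in 15 of these 20 cases.

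**Figure D4:**
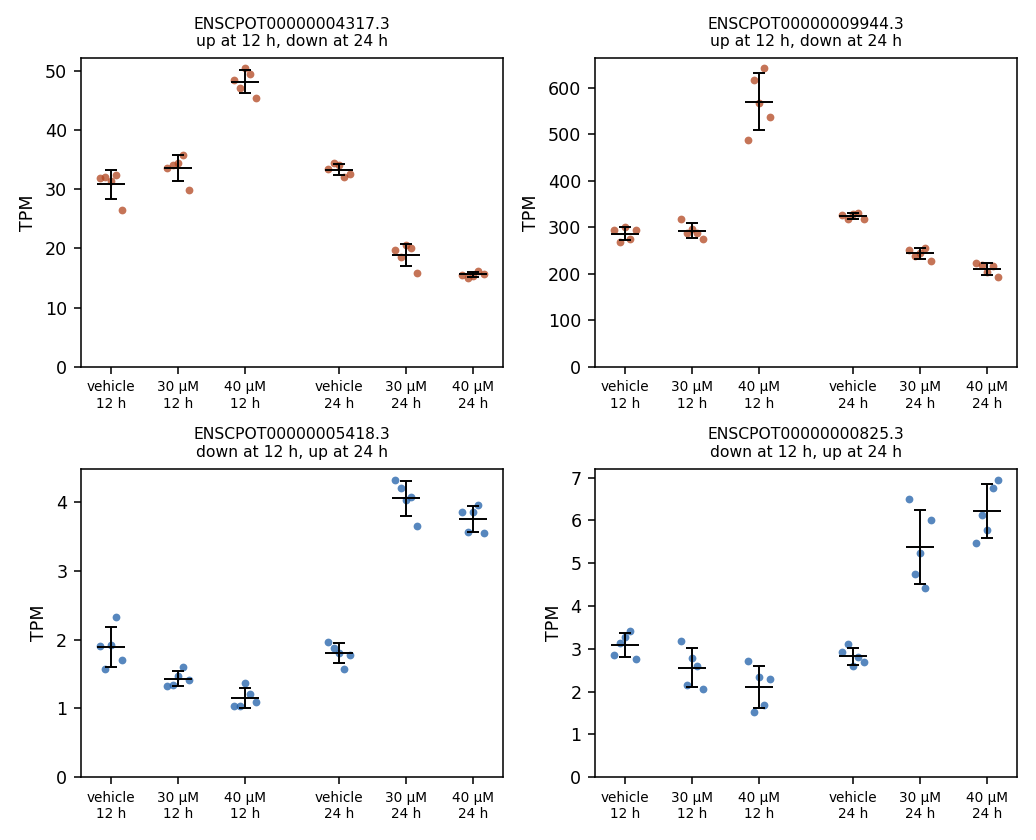
TPM in each library (points) with the group mean and SD (bars, n = 5) for the 4 transcripts named by identifier, in vehicle, low-dose (30 µM) and high-dose (40 µM) groups at 12 h and 24 h. In the upper panels the high-dose points lie above vehicle at 12 h and below it at 24 h, and in the lower panels the order is the reverse; the vertical axes start at 0.

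Transcript ENSCPOT00000004317.3, 6443 bases long with whole estimates, had the largest fall between the times among the members without overlap that were higher at 12 h. In vehicle at 12 h it stood at 32.0, 32.1, 31.3, 32.5 and 26.5 TPM in replicates 1 to 5, and at the high dose at 48.5, 47.1, 50.5, 49.5 and 45.4 TPM. At 24 h vehicle stood at 33.5, 34.4, 34.2, 32.1 and 32.6 TPM and the high dose at 15.6, 15.1, 15.4, 16.3 and 15.7 TPM. The high-dose libraries were thus all above vehicle at 12 h and all below at 24 h, while vehicle kept its level apart from 1 lower library. The group means were 30.9 ± 2.46 and 48.2 ± 1.97 TPM (SD, n = 5) at 12 h and 33.4 ± 0.990 and 15.6 ± 0.442 TPM at 24 h.

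At the low dose the earlier difference was smaller than the later one. ENSCPOT00000004317.3 was at 33.6, 34.1, 34.5, 35.8 and 29.9 TPM in the low-dose libraries at 12 h, overlapping with vehicle though called higher (0.21 on the log2 scale, adjusted p = 0.0251 by edgeR's quasi-likelihood test with Benjamini-Hochberg adjustment, against the vehicle libraries that the rule used), and at 19.7, 18.6, 20.5, 20.03 and 15.8 TPM at 24 h. Between these times it fell by 0.81 on the log2 scale (SE 0.05, adjusted p = 1.32e-05 by edgeR's quasi-likelihood test with Benjamini-Hochberg adjustment), with no overlap between the times.

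Transcript ENSCPOT00000009944.3, 771 bases long with whole estimates, was among the abundant members. It stood at 295, 268, 301, 274 and 294 TPM in vehicle at 12 h and at 489, 616, 569, 642 and 537 TPM in the high-dose group. At 24 h it stood at 326, 318, 329, 332 and 319 TPM in vehicle and at 224, 219, 204, 216 and 193 TPM in the high-dose group. The lowest high-dose library at 12 h thus lay above the highest of vehicle, and the highest at 24 h lay below the lowest. In vehicle, whose libraries the rule used, all 5 values were higher at 24 h than at 12 h, by 0.24 on the log2 scale. Low-dose libraries were at 318, 287, 296, 288 and 275 TPM at 12 h, within the range of vehicle but for 1 though called higher (0.13 on the log2 scale, adjusted p = 0.0573 by edgeR's quasi-likelihood test with Benjamini-Hochberg adjustment, against the vehicle libraries that the rule used), and at 251, 239, 244, 256 and 228 TPM at 24 h. Between the times at the low dose it fell by 0.27 on the log2 scale (SE 0.03, adjusted p = 0.000773 by edgeR's quasi-likelihood test with Benjamini-Hochberg adjustment).

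Transcript ENSCPOT00000005418.3, 6886 bases long with whole estimates, went the other way at a low level. It stood at 1.91, 1.57, 1.92, 2.33 and 1.71 TPM in vehicle at 12 h and at 1.03, 1.03, 1.38, 1.21 and 1.09 TPM in the high-dose group. At 24 h it stood at 1.97, 1.88, 1.81, 1.58 and 1.78 TPM in vehicle and at 3.85, 3.57, 3.85, 3.96 and 3.55 TPM at the high dose. Vehicle stayed near 1.8 to 1.9 TPM on average at both times, and the high-dose libraries lay below it and then above it without overlap. The low-dose libraries were at 1.33, 1.35, 1.47, 1.604 and 1.42 TPM at 12 h and at 4.32, 4.20, 4.03, 4.07 and 3.65 TPM at 24 h. This rise between the times at the low dose was 1.51 on the log2 scale (SE 0.07, adjusted p = 1.13e-06 by edgeR's quasi-likelihood test with Benjamini-Hochberg adjustment).

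Transcript ENSCPOT00000000825.3, 1408 bases long with whole estimates, had 79.97 counts per library on average and a wider spread. It stood at 2.87, 3.13, 3.27, 3.41 and 2.75 TPM in vehicle at 12 h and at 2.71, 1.51, 2.33, 1.69 and 2.29 TPM at the high dose, so that the gap between the groups was narrow. At 24 h it stood at 2.93, 3.11, 2.61, 2.80 and 2.70 TPM in vehicle and at 5.47, 6.12, 5.77, 6.76 and 6.94 TPM at the high dose, a wide gap. The low-dose libraries were at 3.19, 2.16, 2.79, 2.59 and 2.07 TPM at 12 h and at 6.50, 4.75, 5.25, 4.42 and 6.02 TPM at 24 h. The rise between the times at the low dose was 1.08 on the log2 scale (SE 0.17, adjusted p = 0.00311 by edgeR's quasi-likelihood test with Benjamini-Hochberg adjustment).

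Of the 3 further members without overlap in the first direction, the most abundant was 2987 bases long with whole estimates. It stood at 721 ± 54.3 TPM (SD, n = 5) in vehicle and 1011 ± 152 TPM in the high-dose group at 12 h, and at 672 ± 18.2 and 438 ± 41.4 TPM at 24 h. The low dose, at 725 ± 29.5 and 632 ± 17.1 TPM, was close to vehicle at 12 h and below it by a smaller margin at 24 h. The remaining pair, of 1965 and 3098 bases, had largest group means of 4.24 and 1.95 TPM, in the high-dose libraries of 12 h.

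Among the 9 further members without overlap in the second direction, the later gain was often larger than the earlier loss. Over all 11, D ran from -0.71 to -0.41 at 12 h and from 0.43 to 1.84 at 24 h, and it was the larger at 24 h in 8. A transcript of 5361 bases with whole estimates stood at 6.42 ± 0.404 and 4.73 ± 0.429 TPM in vehicle and high dose at 12 h and at 5.68 ± 0.538 and 18.2 ± 1.45 TPM at 24 h (SD, n = 5). A transcript of 1290 bases with fractional estimates stood at 5.65 ± 0.447 and 4.13 ± 0.412 TPM at 12 h and at 4.08 ± 0.708 and 15.9 ± 1.48 TPM at 24 h. Their D at 12 h was -0.41 for both, at the edge of the rule.

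Others of the 11 were more even between the times. A transcript of 3063 bases was at 10.4 ± 0.918 and 6.77 ± 0.688 TPM in vehicle and high dose at 12 h and at 9.89 ± 0.962 and 19.6 ± 1.52 TPM at 24 h (SD, n = 5). A transcript of 3800 bases, with the highest count of the 11 (1102 per library), was at 18.9 ± 0.904 and 11.3 ± 0.686 TPM at 12 h and at 16.1 ± 0.235 and 22.8 ± 1.30 TPM at 24 h.

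The change between the times at the low dose used no library from which D at the high dose was computed. The low-dose means did enter the filter of 1 TPM, and 4 of the 75 and 3 of the 108 members reached it only through them, so their low-dose values helped to admit them. The comparison asks whether the members moved between 12 h and 24 h at 30 µM as they did at 40 µM. Of the 108 members lower at 12 h and higher at 24 h, 75 passed the filter on low counts and 16 were called higher at 24 h than at 12 h, against 4.31% of all 16650 transcripts tested. No member of this set was called lower by edgeR's quasi-likelihood test or by DESeq2, and 1 was lower at an unadjusted p under 0.05 by the edgeR test. Without low-dose replicate 5 at 24 h, 16 were again called higher and 1 lower, while 9.16% of all transcripts tested were called higher and 9.4% lower. Of the 16, 1 that was also without overlap at the high dose passed the filter only through its low-dose mean at 24 h, and without such members 15 of 74 tested were called higher. The 16 changes ran from 0.26 to 1.51 on the log2 scale with a median of 1.11. Of the 16, 9 were among the 11 members without overlap at the high dose, 5 had whole estimates and 14 had no overlap between the times at the low dose. In TPM, 16 of the 108 members lay higher at 24 h without overlap, against 3.36% of all 15909 transcripts, and 15 of the 105 that needed no low-dose mean to pass the filter.

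Of the 75 members higher at 12 h and lower at 24 h, 38 passed the filter and 4 were called lower at 24 h at the low dose, against 4.71% of all tested. All 4 had whole estimates and were among the 5 members without overlap at the high dose, and their changes ran from -0.81 to -0.19 on the log2 scale. Without low-dose replicate 5 at 24 h, 5 were called lower, against 9.4% of all tested. DESeq2 called more of the members lower, as given with the other settings below, against 4.4% of all tested. In TPM, 5 of the 75 members lay lower at 24 h without overlap, against 4.74% of all 15909. Of these 5, 1 passed the filter only through its low-dose mean at 12 h, which left 4 of 71. The 4 called lower needed no low-dose mean to pass. A further member was called higher, with a change of 4.73, against 4.31% of all tested. This call was lost without any 1 of 6 libraries (low-dose replicates 1, 3 and 5 at 12 h and 1, 2 and 4 at 24 h), under both limma settings and at an adjusted p under 0.05. It was 468 bases long with fractional estimates, and at the low dose its 5 libraries ranged from 0 to 11.3 TPM at 12 h and from 0.0893 to 168 TPM at 24 h. Of the 5 low-dose libraries at 24 h, replicate 3 lay within the range of 12 h and the others, at 44.5 TPM and over, lay above it.

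Both signs of the low-dose change occurred among the members tested. Over the 38 members tested of the first set, 25 had a log2 change below 0 and 13 above, with a median of -0.18. Over the 75 tested of the second set, 46 were above 0 and 29 below, with a median of 0.15. The median over all 16650 transcripts tested was -0.0015, with 8253 above 0 and 8397 below. All 5 of the first set and all 11 of the second set without overlap had the direction of the high dose.

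**Figure D5:**
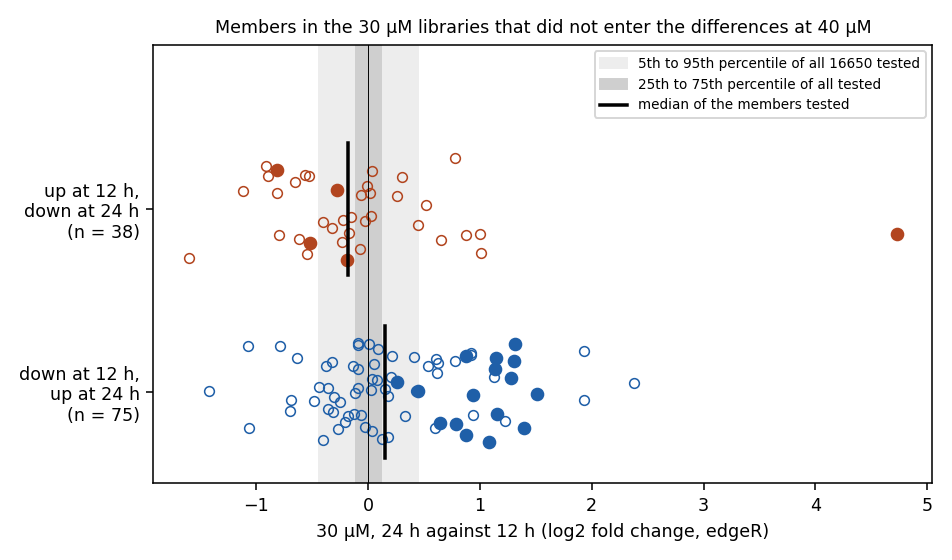
Log2 fold change between 24 h and 12 h at the low dose (horizontal axis) for the 38 and 75 members that passed the filter on low counts. Filled points were called (adjusted p under 0.1), open points were not, vertical bars are medians (-0.18 and 0.15), and shading spans the 5th to 95th and 25th to 75th percentiles of all 16650 transcripts tested; vertical jitter has no meaning. The 16 filled points of the second set all lie above 0, and the filled points of the first set are 4 below 0 and 1 at 4.73.

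Against vehicle of the same time, the low dose gave the following calls, which share the vehicle libraries with the rule and are given as values only. At 12 h, 4 of 36 tested members of the first set were called higher (15% of all tested) and 1 lower (14% of all tested), and all 6 called of the 78 tested in the second set were lower (14% of all tested). At 24 h, all 3 called of the 40 tested in the first set were lower (10.5% of all tested) and all 16 called of the 68 tested in the second set were higher (10.5% of all tested). Without low-dose replicate 5, likewise added after seeing the data, all 4 called of 39 were higher and all 6 called of 81 were lower at 12 h (14.6% of all tested were higher and 13.8% lower). At 24 h 4 were lower of 41 and 16 higher of 78 (14.3% and 14.1% of all tested). The 4 transcripts named above stood, at the low dose at 12 h, at D of 0.12, 0.03, -0.31 and -0.23 in the order given. At 24 h they stood at -0.80, -0.41, 0.98 and 0.82, beside -1.07, -0.62, 0.89 and 1.01 at 40 µM.

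Direct comparison of the doses is likewise given as values only. With 40 µM set against 30 µM at 12 h, 11 of 44 tested members of the first set were called higher (16.8% of all tested) and 16 of 67 of the second set were called lower (16.7% of all tested). At 24 h, 4 of 33 of the first set were called lower (1.88% of all tested) and 4 of 77 of the second set were called higher (1.7% of all tested). Between the times within the high-dose group, 13 of 40 of the first set were called lower at 24 h (20.8% of all tested) and 35 of 74 of the second set were called higher (22.1% of all tested). These comparisons all hold the high-dose libraries that chose the members, and nothing is read from them.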

How the data were processed

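RNA-seq of 30 libraries was analysed per transcript. The authors pseudo-aligned the reads with kallisto (version 0.42.4 per the submitters' processing notes) to the Ensembl guinea pig transcriptome, whose release is not given in the sources used here, and deposited 1 table per library without pooling. For each transcript the deposited tables give an estimated count, not normalised and not always whole, together with its TPM. Groups came from agent, dose and time in the labels. The members and the lists were chosen with earlier results of these data known.

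Group means, D and overlaps were computed from TPM. An estimate was called fractional when it was over 0.001 from a whole number in any library. After rounding to whole numbers, the estimated counts of all transcripts entered the quasi-likelihood test of edgeR 4.0.16 in R 4.3.3 (TMM normalisation, filterByExpr, only the libraries compared). A transcript was called when its p, adjusted by Benjamini-Hochberg over all transcripts tested, was under 0.1, as in the study. The study used Sleuth, which was not used here. No p-value was computed over the members as a list.

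The 4 transcripts named were taken by a rule: members with at least 50 counts per library on average, whole estimates and no overlap between high dose and vehicle at both times, 2 per direction by the smaller size of D. At most 2 identifiers per direction are printed because no names could be paired. The edgeR test between the times at the low dose was tried on simulated counts. The simulation gave all transcripts 1 common spread and held no libraries that stand apart. The alternatives were other pseudocounts (0.1 and 1 TPM), thresholds (0.3 and 0.6) and filters, group medians, TMM-scaled counts (CPM), RLE size factors, no count filter, all 30 libraries in 1 fit, a replicate block, DESeq2 1.42.0, limma 3.58.1 on log2(TPM + 1) and log2(TPM + 0.1), an adjusted p under 0.05, and leaving out libraries. A filter on the vehicle and high-dose means alone, calls against vehicle at 40 µM without high-dose replicate 5 at 24 h, and low-dose values and calls against vehicle without low-dose replicate 5 were added after seeing the data. Depth limits counting precision for rare transcripts, and sharing of reads adds uncertainty that these tables do not measure.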

Additional observations from a re-analysis of the deposited data

Results flagged for a closer look

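In 42 sets of 5 libraries examined (the 4 named transcripts, the 2 member sums and the library totals, in each group), 2 held a library far from its group mates, and chance gives about 1 in 20, or 2.1 here. Transcript ENSCPOT00000004317.3 stood at 26.5 TPM in vehicle replicate 5 at 12 h, where the other 4 libraries lay between 31.3 and 32.5 TPM. The summed TPM of the 75 members higher at 12 h and lower at 24 h was 1245 in low-dose replicate 1 at 24 h, where the other 4 libraries lay between 1060 and 1109.

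The high-dose effect itself differed between 24 h and 12 h for 5261 of 17512 transcripts (edgeR interaction contrast, adjusted p under 0.1). Of the members, 19 of 55 tested in the first set were called in their direction (14.2% of all tested were lower) and 39 of 84 in the second set (15.8% of all tested were higher). These are the values that chose the members, so nothing is read from them.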

How the results depend on the processing

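The number of members depended on the rule. In the order higher-then-lower and lower-then-higher, against 75 and 108, it was 134 and 168 with a pseudocount of 0.1 TPM, 46 and 69 with 1 TPM, 145 and 213 with a threshold of 0.3, 25 and 31 with 0.6, 20 and 30 with a filter of 5 TPM, and 118 and 155 with no filter. Leaving out 1 library gave 71 to 91 and 100 to 126, and 39 members met the rule whichever of the 20 vehicle and high-dose libraries was left out. Group medians gave 107 and 130, of which 38 and 60 were shared with the main sets, and 151 of the 183 members kept both signs on that scale. TMM-scaled counts (CPM), which carry no length, gave 89 and 100, sharing 39 and 56, and 73 members fell below the filter on that scale. Of the 16 members without overlap, 2 to 16 still met the rule under these settings. A filter on the vehicle and high-dose means alone, chosen after seeing the data, gave 71 and 105. Leaving out high-dose replicate 5, likewise added, gave 8 and 21 members called at 24 h (12.7% and 12.4% of all tested). With it the counts were 7 and 23 (14% and 13.6% of all tested).

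At the low dose, 1503 transcripts were called between the times, and 981 at an adjusted p under 0.05. Without replicate 5 at both times this was 3230, and leaving out 1 library gave 1006 to 3131, the highest without replicate 5 at 24 h. Of the members higher-then-lower, 3 to 5 were called lower when 1 library was left out (2.93% to 9.4% of all tested). By DESeq2 7 were called lower (4.4% of all tested). The 1 called higher was lost (0) under both limma settings, at an adjusted p under 0.05 and without 6 single libraries (0 to 1). Of the members lower-then-higher, 12 to 16 were called higher when 1 library was left out (3.02% to 9.16% of all tested). Without replicate 5 at both times 16 were called higher (9.7% of all tested) and 1 lower (9.5% of all tested). In the fit of all 30 libraries 1 was called lower (5.63% of all tested). When leaving out 1 library, 0 to 1 were called lower (2.93% to 9.4% of all tested). The causes were not tested. In this test between the times the 4 named transcripts kept direction and call in 19 of 19 settings. As members, 2 of the 4 met the rule at a threshold of 0.6 and 3 with a pseudocount of 1 TPM, a filter of 5 TPM or group medians, and ENSCPOT00000000825.3 met it in 19 of 20 cases with 1 library left out.

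With a replicate block that took the title number's position in each run of 6, 2203 transcripts were called. Among them were 3 higher-then-lower members (lower, against 6.64% of all tested) and 17 lower-then-higher members (higher, against 6.59% of all tested). Same-position low-dose libraries correlated at -0.02 to 0.06 for 4 positions and at 0.37 for the fifth, which holds replicate 5 at both times. For the fifth, the highest correlation with another position was -0.09. Only low-dose libraries were compared, so whether the numbers pair the libraries was not settled.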
